A study of Homo sapiens with 8 samples.

Results

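Heparan sulfatases, syndecans and glypicans were followed in H2452 cells, an established human line derived from biphasic pleural mesothelioma. The rule took 10 genes by symbol from the 20323 genes of the deposited table: the sulfatases SULF1 and SULF2, the syndecans SDC1, SDC2, SDC3 and SDC4, and the glypicans GPC1, GPC3, GPC4 and GPC6. Cells of both groups are labelled wild type. The treated cells were exposed to deoxypodophyllotoxin (DPT) at 20 nM over 48 h, and the control cells to its solvent DMSO over the same time. DPT is a lignan of plants that attaches to tubulin and keeps microtubules from forming. There were 4 libraries of either kind, biological replicates by the series design, and no label names a culture day or batch. All libraries came from this 1 line, so the values describe it alone. The members were selected on their counts in the DPT and DMSO libraries, with the differences already known. Their differences between these groups are therefore given as a description, without p values, and are not used to support anything. The same holds where a member is said to be called.

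Heparan sulfate is a long sugar chain that enzymes of the Golgi build on core proteins and then decorate with sulfate groups. Syndecans carry such chains on transmembrane cores and glypicans on cores tied to the outer membrane leaflet by a lipid anchor, and the sulfated chains hold growth factors, chemokines and matrix proteins at the cell surface. SULF1 and SULF2 are secreted enzymes that remove 6-O-sulfate groups from finished chains outside the cell, which alters which ligands the chains bind.

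Library totals were 16087550 to 16524401 counts in DPT and 14964432 to 17205391 counts in DMSO. Levels are CPM, counts scaled to library size and, by TMM, to library composition, unless FPKM is named, which is also scaled by gene length. All fold changes put DPT on top, each with the standard error (SE) from the fit. Genes count as called where the edgeR quasi-likelihood fit over all 12648 tested genes gave an adjusted p below 0.05. DPT replicate 2 and DMSO replicate 3 stood apart from the other 6 libraries on the first principal component (27.86 and 36.3 against -21.73 to -2.32). Values with a term for this pair or without it are given where they change the call of a named gene. The pair was picked from these same counts. Calls and adjusted p values of those fits do not allow for that choice and are a description. Of 12 mesothelial markers 10 averaged at least 1 CPM, among them MSLN, CALB2 and WT1, while UPK1B and HP did not. Markers of other cell types reached that level for 2 of 8 leukocyte genes (CD14 and CD68), 3 of 6 endothelial genes (PECAM1, CDH5 and KDR) and 0 of 6 fibroblast genes, and MS4A1, DCN and LUM had no counts. Summed marker levels in DPT and in DMSO were 2164 to 3548 and 3378 to 4862 CPM for mesothelial genes, 94.2 to 145 and 91.0 to 130 CPM for leukocyte genes, 3.66 to 9.45 and 1.81 to 5.34 CPM for endothelial genes, and 1.44 to 2.82 and 1.36 to 1.69 CPM for fibroblast genes. Most of the mesothelial sum came from KRT7, KRT8, KRT18 and KRT19, with means of 176.2 to 1244 CPM in DPT and 218.4 to 1781 CPM in DMSO. The markers did not all go the same way. MSLN averaged 12.6 CPM in DPT and 16.3 CPM in DMSO, but CALB2 (14.3 against 9.49 CPM) and WT1 (9.42 against 8.17 CPM) were higher in DPT. Most of the leukocyte sum came from CD68 and CD14. The part of these cell types in the results was not tested.

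SULF1 was the member with the largest fold change, and its message fell 3.04-fold with DPT. SULF1 (ENSG00000137573, chromosome 8, 69466624 to 69660915 of GRCh38) measured 10.03, 11.6, 6.996 and 8.58 CPM in DPT replicates 1 to 4, against 31.2, 29.1, 22.8 and 30.2 CPM in DMSO replicates 1 to 4. Every DPT library lay below every DMSO library, and the highest DPT and the lowest DMSO value were those of the pair. The means were 9.31 ± 1.98 CPM in DPT and 28.3 ± 3.80 CPM in DMSO (SD, n = 4 each), a log2 fold change of -1.60 (SE 0.162). It ranked 19 among the 12648 tested genes, counted from the lowest log2 fold change. Within the pair, DPT replicate 2 differed from DMSO replicate 3 by -0.94 log2, while the fit to the other 6 libraries gave -1.82 (SE 0.113). In bulk RNA, fewer cells that make a message and less message per cell cannot be told apart.

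SULF2, the other enzyme of this kind, showed no such separation of the groups. SULF2 (ENSG00000196562, chromosome 20, 47656348 to 47786616) measured 39.4, 54.1, 28.2 and 28.98 CPM in DPT replicates 1 to 4, against 37.4, 37.6, 49.98 and 39.4 CPM in DMSO replicates 1 to 4. The groups overlapped, with the highest value of each group in the pair. The log2 fold change was -0.13 (SE 0.202), and -0.25 (SE 0.104) without the pair, and SULF2 was called in neither fit. Within the pair the difference was 0.11 log2. Its exons overlap those of NCOA3 on the opposite strand, and the sources used here do not say whether counting took the strand into account.

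As a share of the summed sulfatase FPKM, SULF1 made up 19.9%, 18.5%, 16.4% and 27.8% in DPT replicates 1 to 4, against 42.8%, 41.1%, 30.3% and 47.5% in DMSO replicates 1 to 4. The groups did not overlap, and the means were 20.7% ± 5.0 in DPT and 40.4% ± 7.27 in DMSO (SD, n = 4 each). The summed level was 12.5 ± 3.77 FPKM in DPT and 17.8 ± 1.14 FPKM in DMSO, of which SULF2 was the larger part in every library. With CPM in place of FPKM the shares of SULF1 were 20.2% ± 2.11 in DPT and 41.0% ± 6.51 in DMSO.

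**Figure D1:**
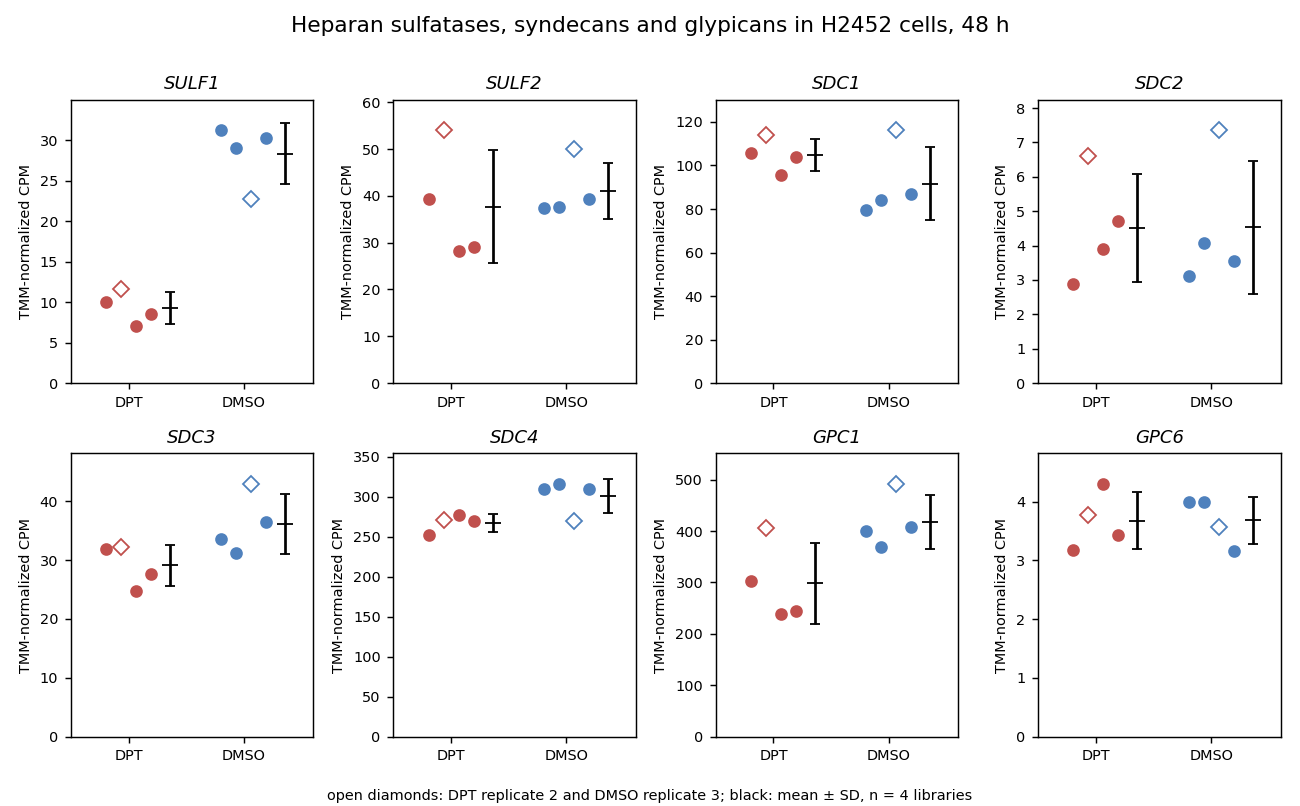
TMM-normalized CPM of the 8 tested members, 1 panel per gene with a linear axis from 0; points are libraries (DPT on the left, DMSO on the right), open diamonds are DPT replicate 2 and DMSO replicate 3, and black bars are mean ± SD. SULF1 has all 4 DPT libraries (6.996 to 11.6 CPM) below all 4 DMSO libraries (22.8 to 31.2 CPM), while the groups overlap for each other gene.

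SDC4 carried most of the syndecan message. SDC4, a widely expressed syndecan of focal adhesions (ENSG00000124145, chromosome 20, 45325288 to 45348424), measured 251.3, 270.7, 277.0 and 269.3 CPM in DPT replicates 1 to 4, against 308.9, 316.0, 269.4 and 309.5 CPM in DMSO replicates 1 to 4. DMSO replicate 3 lay among the DPT libraries, and the other 3 DMSO libraries lay above all of them. The log2 fold change was -0.17 (SE 0.0695), which was not called, and -0.17 (SE 0.0487) with the term for the pair, which was. Within the pair the difference was 0.01 log2.

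SDC1, the main syndecan of epithelial cells (ENSG00000115884, chromosome 2, 20200797 to 20225433), was the tested member with the highest fold change. It measured 105.6, 113.9, 95.9 and 103.9 CPM in DPT replicates 1 to 4, against 79.7, 84.0, 116.3 and 86.7 CPM in DMSO replicates 1 to 4. All DPT libraries were above DMSO replicates 1, 2 and 4 and below DMSO replicate 3. The log2 fold change of 0.19 (SE 0.117) was not called, and that of 0.20 (SE 0.0594) with the term for the pair was. Without the pair it was 0.29 (SE 0.0545), and within the pair -0.03.

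SDC3, known from nerve cells and developing muscle (ENSG00000162512, chromosome 1, 30869467 to 30908761), measured 31.8, 32.2, 24.8 and 27.6 CPM in DPT replicates 1 to 4, against 33.7, 31.2, 43.0 and 36.5 CPM in DMSO replicates 1 to 4. The groups overlapped through DMSO replicate 2, which was lower than DPT replicates 1 and 2. The log2 fold change was -0.31 (SE 0.12), called with the term for the pair (-0.31, SE 0.0819) and not in the fit of treatment alone to all 8 libraries. SDC2, the syndecan of mesenchymal cells (ENSG00000169439, chromosome 8, 96493351 to 96611780), averaged 4.52 ± 1.57 CPM in DPT and 4.52 ± 1.93 CPM in DMSO (SD, n = 4 each). Its highest libraries were the pair, with 6.59 CPM in DPT replicate 2 and 7.36 CPM in DMSO replicate 3, against 2.88 to 4.72 CPM in the other 3 DPT libraries and 3.12 to 4.07 CPM in the other 3 DMSO libraries. It was called in no fit.

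By FPKM, SDC4 made up 64.8% to 73.5% of the summed syndecan level in DPT and 66.7% to 76.9% in DMSO, with means of 68.5% ± 3.89 and 73.0% ± 4.46 (SD, n = 4 each). SDC1 made up 26.5% ± 3.43 in DPT and 21.0% ± 3.60 in DMSO, and the groups overlapped for each syndecan. The summed level was 151.4 ± 4.67 FPKM in DPT and 155.4 ± 2.23 FPKM in DMSO.

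**Figure D2:**
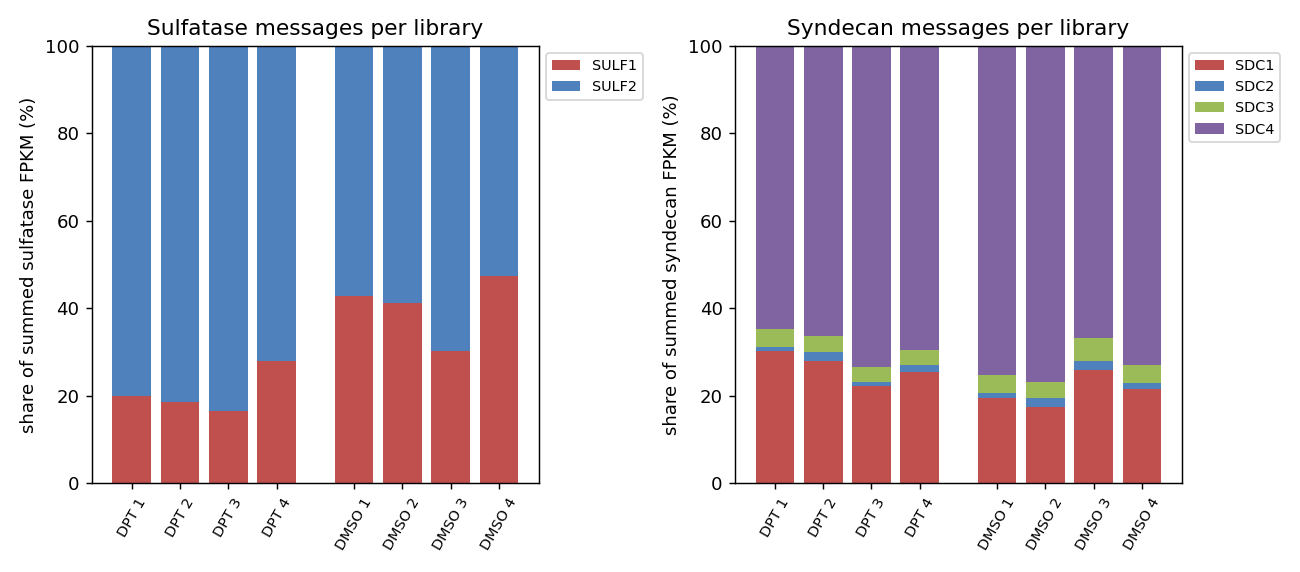
Share of each gene in the summed FPKM of the 2 sulfatases (left) and of the 4 syndecans (right), in percent, 1 bar per library with the 4 DPT libraries left of the 4 DMSO libraries. SULF1 takes 16.4% to 27.8% of the sulfatase level in DPT and 30.3% to 47.5% in DMSO, and SDC4 takes the largest part of the syndecan level in all 8 libraries.

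GPC1 supplied nearly all glypican message, at 99.2% ± 0.285 of the summed glypican FPKM in DPT and 99.3% ± 0.372 in DMSO (SD, n = 4 each). GPC1, which binds fibroblast growth factors through its chains (ENSG00000063660, chromosome 2, 240435671 to 240468078), measured 303.5, 406.6, 238.0 and 244.6 CPM in DPT replicates 1 to 4, against 400.7, 369.7, 492.1 and 408.4 CPM in DMSO replicates 1 to 4. DPT replicate 2, the high library of its group, lay above DMSO replicates 1 and 2, and the other 3 DPT libraries lay below every DMSO library. The means were 298.2 ± 78.1 CPM in DPT and 417.7 ± 52.3 CPM in DMSO, a log2 fold change of -0.49 (SE 0.168) that was not called. With the term for the pair it was -0.51 (SE 0.0719) and called, without the pair -0.59 (SE 0.07), and within the pair -0.27. DPT replicate 2 is the 1 library without which the fit to the other 7 called GPC1 (-0.67, SE 0.116), and DESeq2 called it with all 8.

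The other glypicans were scarce. GPC6 (ENSG00000183098, chromosome 13, 93226842 to 94407401) averaged 3.67 ± 0.486 CPM in DPT and 3.68 ± 0.401 CPM in DMSO (SD, n = 4 each), and its log2 fold change was -0.00 (SE 0.17). GPC4 (ENSG00000076716, chromosome X, 133300103 to 133415490) had 3, 5, 13 and 8 counts in DPT replicates 1 to 4, against 1, 6, 7 and 1 counts in DMSO replicates 1 to 4, and was too low to be tested. GPC3, the glypican mutated in an overgrowth syndrome (ENSG00000147257, chromosome X, 133535745 to 133985895), had 1 count in DPT replicate 1 and 0 in the other 7 libraries. A count of 0 allows up to 0.182 to 0.186 CPM per library in DPT and 0.174 to 0.2 CPM in DMSO, as counting error only, so GPC3 was not detectable at this depth.

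The promoters of SDC4 and GPC1 are shown because these genes give most of the syndecan and glypican message. Each window holds 300 bases, 250 before and 50 after the start of the gene, from RefSeq on GRCh38.p14, written 5′ to 3′ on the strand of the gene: chr20:45348375-45348674 on the minus strand for SDC4 and chr2:240435413-240435712 on the plus strand for GPC1. Capitals mark the GC box GGGCGG on either strand, the letters that factors of the SP family bind, and neighbouring boxes can share bases.
SDC4: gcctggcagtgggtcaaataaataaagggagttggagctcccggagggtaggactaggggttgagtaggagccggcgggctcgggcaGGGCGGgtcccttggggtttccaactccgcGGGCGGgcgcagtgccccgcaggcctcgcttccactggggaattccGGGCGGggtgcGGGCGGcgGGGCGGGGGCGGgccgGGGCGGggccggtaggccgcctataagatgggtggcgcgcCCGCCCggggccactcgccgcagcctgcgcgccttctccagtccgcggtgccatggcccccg
GPC1: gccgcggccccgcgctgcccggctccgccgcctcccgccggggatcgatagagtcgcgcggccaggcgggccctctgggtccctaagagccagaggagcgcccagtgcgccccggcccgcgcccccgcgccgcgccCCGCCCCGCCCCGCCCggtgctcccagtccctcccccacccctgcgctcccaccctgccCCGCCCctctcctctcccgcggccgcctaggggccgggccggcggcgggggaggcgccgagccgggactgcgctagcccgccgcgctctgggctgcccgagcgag
There were 8 GC boxes in the SDC4 window and 4 in the GPC1 window, where 45.0% of all 35116 promoter windows in the table hold at least 1. Of 7 members whose windows were searched, 6 had a GC box in at least 1 window, 1 (GPC6) had the TATA box TATAAA and 0 had the AP-1 letters TGANTCA, each searched on both strands. The TATA box stands in 11.5% and the AP-1 letters in 7.71% of all windows. The 7 members have 11 windows together, so counts per member and shares per window are unlike measures.

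By FPKM the members differed widely in level. In DPT the order was SDC4 (97.4 to 107.9 FPKM), GPC1 (65.5 to 110.4), SDC1 (32.6 to 45.4), SULF2 (7.42 to 14.3), SDC3 (4.75 to 6.10), SULF1 (1.46 to 3.24), SDC2 (1.48 to 2.94), GPC6 (0.453 to 0.616) and GPC4 (0.037 to 0.16). In DMSO it was SDC4 (102.6 to 119.3 FPKM), GPC1 (99.0 to 131.7), SDC1 (27.0 to 39.7), SULF2 (9.60 to 12.9), SULF1 (5.61 to 8.94), SDC3 (5.82 to 8.05), SDC2 (1.91 to 3.43), GPC6 (0.434 to 1.17) and GPC4 (0.013 to 0.082). The ranges of SDC4 and GPC1 overlapped in both groups, with means of 103.6 ± 4.43 and 81.3 ± 20.9 FPKM in DPT and 113.4 ± 7.38 and 111.2 ± 14.2 FPKM in DMSO (SD, n = 4 each). SULF1 overlapped SDC2 in DPT and overlapped SDC3 in DMSO. SDC4 stood above 94.8% and GPC1 above 94.1% of tested genes by mean FPKM, against 31.9% for SULF1 and 7.69% for GPC6.

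FPKM and CPM did not move together for every member. Dividing each library's counts, scaled to its total, by its FPKM gives the length that the deposited values assign to a gene in that library. It was 2.61 kb for SDC4 in all 8 libraries and stayed within 3.68 to 3.72 kb for GPC1. For SDC2 it was 1.93 to 2.67 kb in DPT and 1.29 to 2.13 kb in DMSO, and the mean FPKM of SDC2 was 2.03 ± 0.687 in DPT and 2.66 ± 0.733 in DMSO (SD, n = 4 each) although the mean CPM was equal. GPC6 was assigned 7.11 to 7.13 kb in all 4 DPT libraries and in DMSO replicates 1 and 4, but 3.36 and 4.31 kb in DMSO replicates 2 and 3, where its FPKM was 1.17 and 0.822 against 0.551 and 0.434 in DMSO replicates 1 and 4. For SULF1 the length ranged from 2.97 to 4.88 kb in DPT and from 3.30 to 4.28 kb in DMSO, and its log2 ratio of mean FPKM was -1.49.

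Of the 10 members 8 passed the filter on low counts, and 1 of them (SULF1) was called with all 8 libraries, where 11.0% of all tested genes were called (5.68% higher, 5.29% lower). With the term for the pair 5 were called (SULF1, GPC1, SDC3 and SDC4 lower, SDC1 higher), where 34.0% of all tested genes were (16.9% higher, 17.0% lower). The same 5 were called without the pair, where 34.1% of all tested genes were (17.0% higher, 17.1% lower). The biological coefficient of variation between replicates was 6.3% with the term and 14.9% with treatment alone. SULF1 was also the 1 tested member whose groups did not overlap, which held for 18.2% of all tested genes. The median log2 fold change of the 8 tested members was -0.15, beside -0.00 over all tested genes. Calls of members rest on the counts that selected them, so they are a description and no evidence of an effect.

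**Figure D3:**
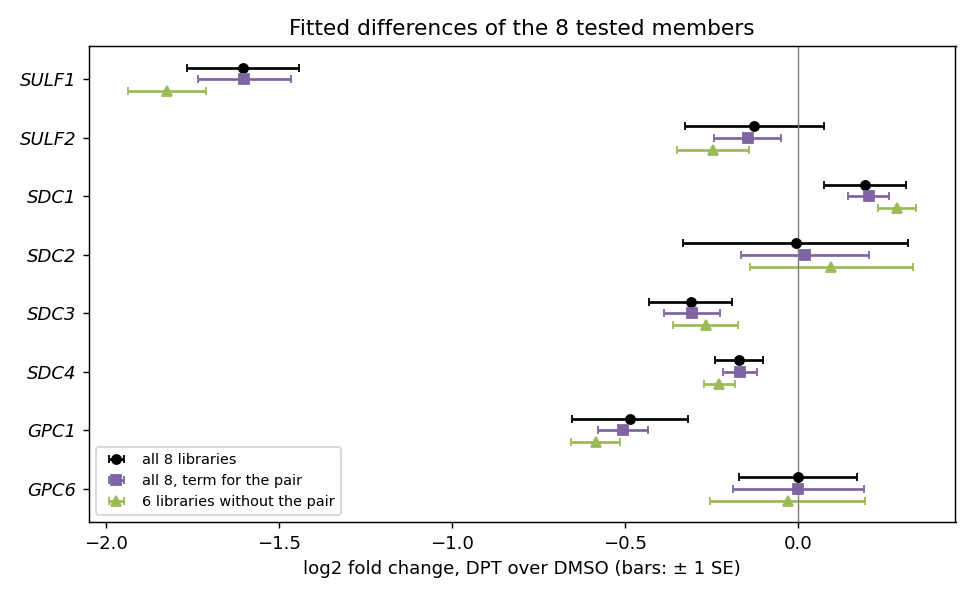
Log2 fold change of DPT over DMSO for the 8 tested members (x axis, bars ± 1 SE) from the fit to all 8 libraries, the fit with a term for DPT replicate 2 and DMSO replicate 3, and the fit without that pair. SULF1 lies at -1.82 to -1.60 in the 3 fits, SDC1 lies above 0 and SDC2 and GPC6 lie around 0.

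The pair itself differed from the other 6 libraries in most members. Relative to the others, and with treatment in the model, SDC2 was 0.91 log2 higher in the pair (SE 0.198), SULF2 0.57 (SE 0.107), GPC1 0.48 (SE 0.0805), SDC1 0.32 (SE 0.0668) and SDC3 0.28 (SE 0.0921). SULF1 (-0.04, SE 0.155), SDC4 (-0.09, SE 0.0564) and GPC6 (-0.00, SE 0.216) differed from the others by less than their SE or, for SDC4, by less than 2 SE. Since these libraries were set apart by their own values, the differences are a description. In this contrast 39.3% of all tested genes passed an adjusted p of 0.05 (19.3% higher, 20.0% lower), and 5 of the 8 tested members did, all of them higher.

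By root mean square difference of centred log2 CPM over the 8 libraries, the genes most like SULF1 included NRXN3, a neurexin (0.111 log2), and CPA4, a carboxypeptidase (0.178), among 10313 genes of at least 5 CPM. Those most like GPC1 were TINAGL1 (0.0617 log2), the tubulin gene TUBB (0.0673) and PLCD3, a phospholipase C (0.0754). SDC1 was closest to GMPPA (0.05 log2), SDC3 to SDHA (0.0472), SDC4 to TMED4 (0.0327) and SULF2 to MGAT5B (0.061).

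Other genes that build, alter, break down or read heparan sulfate were taken as 6 lists of 95 symbols, which matched 98 rows of the deposited table. Of the 77 tested rows, 5 rose and 15 fell, together 26%, where 11.0% of all tested genes were called. The 15 include a second row labelled NDST2, whose identity is uncertain. The lower calls made up 19.5% of the lists and 5.29% of all tested genes, and the higher calls 6.49% and 5.68%. The median log2 fold change was -0.11, beside -0.00 over all tested genes. The lists were chosen with earlier results of these data known, so these shares are a description. Once the pair had its own term, 12 rose and 34 fell, where 34.0% of all tested genes were called. Without the pair 11 rose and 35 fell of 78 tested, where 34.1% of all tested genes were called. The 11 include HS3ST2, which passed the filter there only through its DPT counts, so its call is no evidence of a rise. Leaving out a single library outside the pair lowered the number of calls, both in the lists and over all genes. Without DPT replicate 3, 3 rose and 3 fell, and over all genes 646 were called (314 lower). Without DMSO replicate 1, 4 rose and 3 fell (652 over all genes, 312 lower). Without DPT replicate 4, 3 rose and 4 fell (643 over all genes, 311 lower). Without DMSO replicate 4, 3 rose and 4 fell (673 over all genes, 331 lower). Without DMSO replicate 2, 3 rose and 5 fell (727 over all genes, 353 lower). Without DPT replicate 1, 4 rose and 6 fell (893 over all genes, 434 lower). So few lower calls remained in these fits that no excess was weighed. Leaving out a library of the pair raised the counts. They were 8 higher and 20 lower without DPT replicate 2 (2291 over all genes, 1108 lower). Without DMSO replicate 3 they were 7 higher and 18 lower (1736 over all genes, 877 lower).

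**Figure D4:**
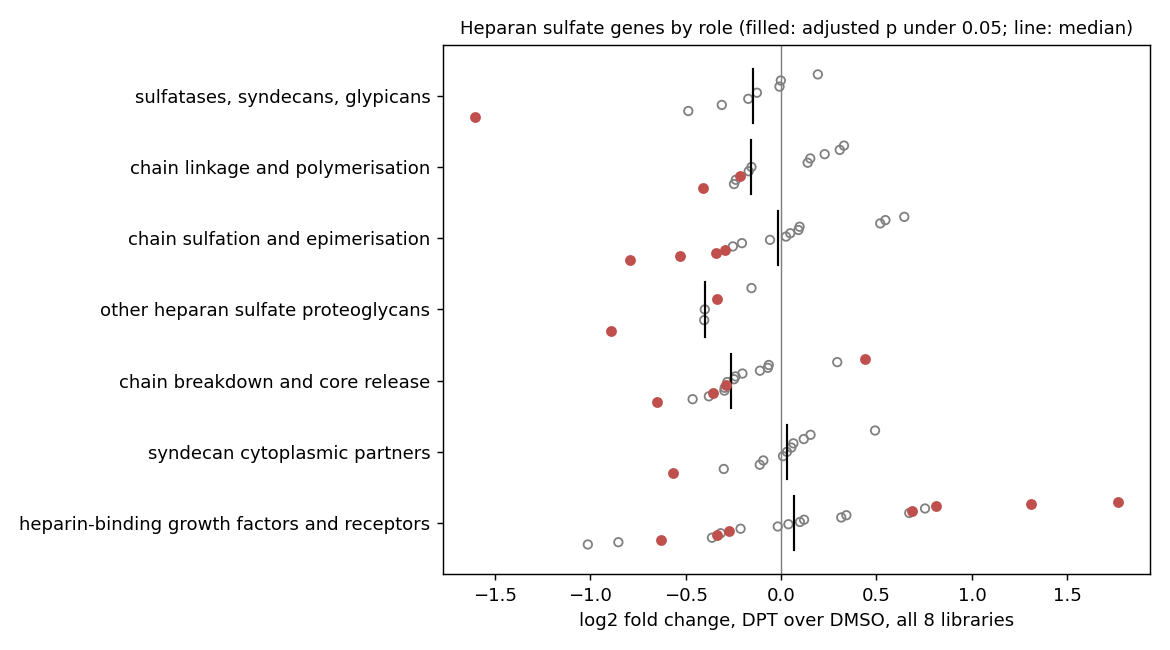
Log2 fold change of DPT over DMSO (x axis, all 8 libraries) for the tested members in the top row and the tested genes of the 6 other lists below; each circle is 1 row of the deposited table, filled where the adjusted p was under 0.05, and black lines are medians. All 5 tested genes of the other proteoglycans lie below 0, and FGF5 (1.77) and HBEGF (1.31) lie farthest to the right.

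EXT1 and EXT2 form the enzyme complex that extends the chain, and of the 11 tested genes for linkage and extension these 2 fell and 0 rose. That is 18.2% called, beside 11.0% of all tested genes. EXT1 measured 157.5, 170.0, 147.2 and 140.4 CPM in DPT replicates 1 to 4, against 214.8, 202.2, 181.3 and 219.8 CPM in DMSO replicates 1 to 4, and fell by 0.41 log2 (SE 0.0841, adjusted p = 0.0148). EXT2 averaged 160.6 ± 4.68 CPM in DPT and 186.2 ± 8.41 CPM in DMSO (SD, n = 4 each; -0.21, SE 0.0579, adjusted p = 0.0446). The groups did not overlap for either gene. The call of EXT1 was lost without DPT replicates 3 or 4 or DMSO replicates 1 or 4 (adjusted p 0.0531 to 0.0554), and that of EXT2 without any single library except DPT replicate 2 (0.054 to 0.133).

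Of 14 tested rows for chain sulfation and epimerisation, with a second row for NDST2, 4 fell and 0 rose, or 28.6% called, beside 11.0% of all tested genes. NDST1, which replaces acetyl by sulfate groups on the growing chain, averaged 221.8 ± 9.02 CPM in DPT and 281.5 ± 18.1 CPM in DMSO (SD, n = 4 each; log2 fold change -0.34, SE 0.0662, adjusted p = 0.0121). PAPSS2, which makes the sulfate donor PAPS, averaged 336.9 ± 62.1 CPM in DPT and 486.9 ± 32.1 CPM in DMSO (-0.53, SE 0.118, adjusted p = 0.021). HS2ST1, the 2-O-sulfotransferase, averaged 46.2 ± 3.46 CPM in DPT and 56.8 ± 2.34 CPM in DMSO (-0.30, SE 0.0716, adjusted p = 0.0284). The fourth was a second row labelled NDST2 (ENSG00000272916, log2 fold change -0.79, adjusted p = 0.0267). Its exons overlap those of the NDST2 gene itself (0.10, adjusted p = 0.618), so its identity is uncertain. The second row averaged 4.34 CPM in DPT and 7.54 CPM in DMSO, against 21.7 and 20.3 CPM for the gene itself. Both rows held counts that were not whole, so how reads were divided between them is uncertain.

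NDST1 kept its call without any single library. PAPSS2 was not called without DPT replicates 1, 3 or 4 or DMSO replicates 1, 2 or 4 (0.0517 to 0.072), HS2ST1 not without DPT replicates 1 or 3 or DMSO replicates 1, 2 or 4 (0.0551 to 0.0821), and the second NDST2 row not without DPT replicates 3 or 4 or DMSO replicates 1, 2 or 4 (0.0531 to 0.0817). The 3-O-sulfotransferases, which add a rare late sulfate group, were not called with treatment alone, but some were once the pair was modelled or left out. HS3ST3A1 measured 23.2, 13.7, 21.7 and 20.7 CPM in DPT replicates 1 to 4, against 13.1, 12.8, 14.7 and 13.6 CPM in DMSO replicates 1 to 4 (log2 fold change 0.55, SE 0.154, adjusted p = 0.0508). It was called with the term for the pair (0.53, SE 0.122, adjusted p = 0.0032) and without the pair (0.73, SE 0.0945, adjusted p = 1.2e-05). Within the pair the difference was -0.10 log2. Since the pair was picked from these same counts, the adjusted p values of these fits, here and for HS3ST3B1, are a description. HS3ST3B1 was not called with treatment alone (0.52, adjusted p = 0.222) or without the pair (0.42, adjusted p = 0.0603), but was with the term (0.54, SE 0.159, adjusted p = 0.0143). The counts of HS3ST3A1 and HS3ST3B1 were not whole in any library, so how their reads were assigned is uncertain. HS3ST2 had 14, 1, 11 and 14 counts in DPT replicates 1 to 4, against 1, 0, 2 and 0 counts in DMSO replicates 1 to 4. It did not pass the filter with all 8 libraries. Without the pair it passed through its DPT counts alone, so its higher call there is no evidence of a rise. With treatment alone, HS3ST1 was at 0.65 log2 (adjusted p = 0.335), and HS6ST1, a 6-O-sulfotransferase that adds the group the sulfatases remove, was at 0.03 log2 (adjusted p = 0.927).

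Among other heparan sulfate proteoglycans 2 of 5 tested genes fell and 0 rose, or 40% lower, beside 5.29% of all tested genes. HSPG2 encodes perlecan, a large proteoglycan of basement membranes. It measured 453.0, 458.1, 322.2 and 378.9 CPM in DPT replicates 1 to 4, against 767.0, 735.9, 724.0 and 766.8 CPM in DMSO replicates 1 to 4. All DPT libraries were below all DMSO libraries, and HSPG2 fell by 0.89 log2 (SE 0.109, adjusted p = 0.00176), a call kept without any single library. COL18A1, a basement membrane collagen that carries heparan sulfate, averaged 109.6 ± 11.7 CPM in DPT and 138.3 ± 8.79 CPM in DMSO (SD, n = 4 each; -0.34, SE 0.086, adjusted p = 0.0355), a call lost without DPT replicates 3 or 4 or any single DMSO library (0.0526 to 0.111). Agrin (AGRN, -0.40, adjusted p = 0.217), betaglycan (TGFBR3, -0.40, adjusted p = 0.247) and serglycin (SRGN, -0.16, adjusted p = 0.322) were not called with all 8 libraries. All 5 were called lower with the term for the pair and without the pair. In these fits 17.0% and 17.1% of all tested genes were called lower.

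Of 16 tested rows for chain breakdown and core release, with a second row for IDS, 1 rose and 3 fell, or 25% called, beside 11.0% of all tested genes. MMP14, a membrane protease that can cut syndecan cores, averaged 314.7 ± 11.1 CPM in DPT and 231.8 ± 9.43 CPM in DMSO (SD, n = 4 each; log2 fold change 0.44, SE 0.0592, adjusted p = 0.0027). ADAM10, another sheddase, averaged 319.8 ± 9.14 CPM in DPT and 409.9 ± 10.95 CPM in DMSO (-0.36, SE 0.0556, adjusted p = 0.0049). The lysosomal enzymes ARSG (-0.65, adjusted p = 0.0321) and HGSNAT (-0.29, adjusted p = 0.0442) fell as well, and both calls were lost without any single library except DPT replicate 2 or DMSO replicate 3 (0.0631 to 0.102 for ARSG and 0.053 to 0.13 for HGSNAT). Heparanase (HPSE), which cuts the chain, was not called with treatment alone (log2 fold change 0.29, SE 0.282, adjusted p = 0.559) or without the pair (0.26, adjusted p = 0.104), but was with the term for the pair (0.30, SE 0.112, adjusted p = 0.0461). MMP14 and ADAM10 kept their calls without any single library.

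Of 11 tested partners of syndecan tails 0 rose and 1 fell, or 9.09%, near the 11.0% called among all tested genes. SYNPO, an actin-associated protein, averaged 71.2 ± 10.3 CPM in DPT and 105.6 ± 16.0 CPM in DMSO (SD, n = 4 each; log2 fold change -0.57, SE 0.135, adjusted p = 0.0271), a call lost without any single library except DPT replicate 2 or DMSO replicate 3 (0.0552 to 0.0817). SDCBP, the scaffold syntenin that binds the syndecan tail, had 0.06 (adjusted p = 0.769).

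Heparin-binding growth factors and their receptors changed both ways, with 4 higher and 3 lower of 20 tested. That is 35% called, beside 11.0% of all tested genes. FGF5, a fibroblast growth factor, measured 28.4, 24.7, 35.0 and 28.4 CPM in DPT replicates 1 to 4, against 8.33, 9.01, 8.88 and 7.98 CPM in DMSO replicates 1 to 4 (log2 fold change 1.77, SE 0.117, adjusted p = 0.000107). HBEGF, a heparin-binding ligand of the EGF receptor, averaged 71.1 ± 5.04 CPM in DPT and 28.7 ± 3.33 CPM in DMSO (SD, n = 4 each; 1.31, SE 0.0949, adjusted p = 0.000159). The groups did not overlap for either, and the calls were kept without any single library. FGF1 averaged 7.22 ± 1.40 CPM in DPT and 4.12 ± 0.70 CPM in DMSO (0.81, SE 0.189, adjusted p = 0.025). NRP2, a neuropilin, measured 70.4, 53.3, 73.7 and 72.1 CPM in DPT replicates 1 to 4, against 38.7, 34.6, 58.3 and 35.4 CPM in DMSO replicates 1 to 4, and was called higher (0.69, SE 0.174, adjusted p = 0.0337). Its groups overlapped through the pair, within which the difference was -0.13 log2, while the other 6 libraries gave 0.99 (SE 0.0641). The difference between these effects, as an interaction term, was -1.12 log2, for libraries set apart by their own values. The pair holds a single library of each group, so no p value is given for this difference.

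FGF2, the prototype heparin-binding growth factor, averaged 242.9 ± 17.1 CPM in DPT and 306.0 ± 16.3 CPM in DMSO (SD, n = 4 each; log2 fold change -0.33, SE 0.0711, adjusted p = 0.0176). The guidance genes ROBO1 (-0.28, adjusted p = 0.0474) and SLIT3 (-0.63, adjusted p = 0.0497) also fell, and both calls were lost without any single library except DPT replicate 2 (0.0608 to 0.136 and 0.076 to 0.135). The call of FGF2 was lost without DPT replicates 1, 3 or 4 or DMSO replicate 1 (0.0507 to 0.0631), that of FGF1 without DPT replicates 3 or 4 or DMSO replicates 2 or 4 (0.054 to 0.0829), and that of NRP2 without DPT replicates 1, 3 or 4 or DMSO replicates 1, 2 or 4 (0.0826 to 0.101). Exons of NDST1, PAPSS2, HS2ST1, HSPG2, COL18A1, ARSG, ADAM10, SLIT3, FGF2, NRP2 and FGF5 overlap those of another annotated gene, so part of their counts is uncertain.

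**Figure D5:**
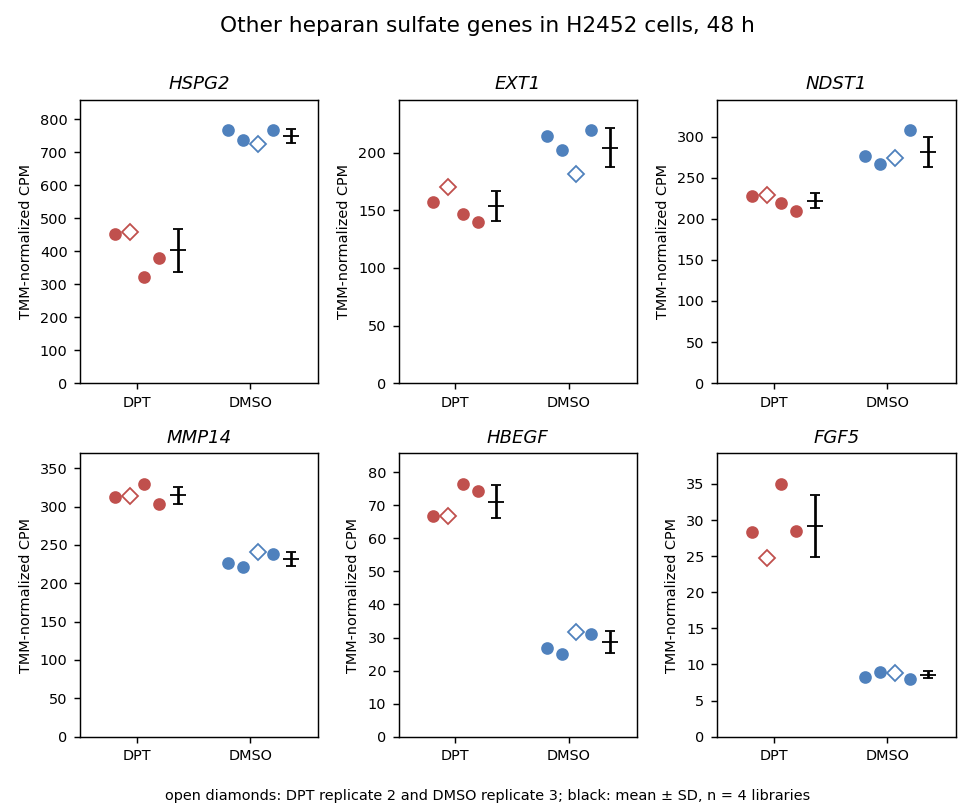
TMM-normalized CPM of 6 other heparan sulfate genes, 1 panel per gene with a linear axis from 0; points are libraries (DPT on the left, DMSO on the right), open diamonds are DPT replicate 2 and DMSO replicate 3, and black bars are mean ± SD. HSPG2, EXT1 and NDST1 are lower in all 4 DPT libraries than in any DMSO library, and MMP14, HBEGF and FGF5 are higher in all 4.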

How the data were processed

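Messenger RNA was measured in 8 H2452 libraries. The submitters' processing notes list the build hg38 and the tools RSEM, HISAT2, DESeq2, StringTie 1.3.1 and fastp 0.18.0. Neither the order of steps nor settings nor annotation is given in the sources used here. The deposited table holds estimated counts per gene (expected counts by their values, 10.8% of which were not whole) and FPKM computed by the authors, per the file headers. Expected counts were rounded.

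The edgeR package 4.0.16 in R 4.3.3 compared DPT with DMSO by the quasi-likelihood test with TMM factors, filterByExpr defaults (minimum count 10, minimum total 15), treatment as the only term and Benjamini-Hochberg adjustment over 12648 genes. The script was tested on simulated data. Alternatives were DESeq2 1.42.0, limma 3.58.1 (voom), other normalization and filters, a replicate block, a term for the pair, and fits without the pair or 1 library. Gene positions are from GENCODE 29 (GRCh38).

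Some items are not reported here. Named were all members, the 3 higher and 3 lower called genes of smallest adjusted p per list, and, chosen after their values were seen, HS2ST1, NRP2, HS3ST2 and other uncalled genes given for their role. Members, the pair and lists were chosen with earlier results of these data known.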

Additional observations from a re-analysis of the deposited data

Results flagged for a closer look

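Each group of 4 libraries was searched for a single library far from the other 3, over the members and the other genes named with a level or fold change (80 groups of CPM values) and over the family shares (15 groups). Of these 95 groups 11 were flagged, or 11.6%, where chance flags about 1 in 20. All 11 values belong to DPT replicate 2 or DMSO replicate 3, the pair that also stood apart over all genes; what sets the pair apart was not tested. In DPT replicate 2, PAPSS2 was at 429 CPM, against 299 to 318 CPM in the other DPT libraries, SYNPO at 55.9 CPM against 75.9 to 77.1 CPM, and NRP2 at 53.3 CPM against 70.4 to 73.7 CPM. In DMSO replicate 3, SULF2 was at 50 CPM, against 37.4 to 39.4 CPM in the other DMSO libraries, PAPSS2 at 535 CPM against 469 to 473 CPM, and SDC4 at 269 CPM against 309 to 316 CPM. In the same library AGRN was at 400 CPM against 644 to 675 CPM, SRGN at 119 CPM against 154 to 156 CPM, and SDCBP at 258 CPM against 330 to 339 CPM. HS3ST3B1 was at 2.45 CPM there, against 5.01 to 5.54 CPM, and the NDST2 gene itself at 17.9 CPM against 20.9 to 21.2 CPM.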

How the results depend on the processing

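SULF1 stayed called and lower under all 16 alternatives, with log2 fold changes of -1.82 to -1.49. This is a description, since SULF1 was selected on these same counts. The 8 tested members' fold changes moved by less than the spread between replicates in all 128 refits. Those of SDC2 (-0.25 to 0.33) and GPC6 (-0.09 to 0.06) nevertheless changed sign. The refits share most of their counts and this spread includes the pair, so the measure is lenient and is not used as support. The number of members called was 1, but 2 with DESeq2, 5 with the term for the pair, 5 without the pair, and 1 to 3 without single libraries. Over all genes the count was 1387, but 4296 with the term, 4327 without the pair and 643 to 2291 without single libraries. Among the other heparan sulfate genes it was 20, but 46 with the term, 46 without the pair and 6 to 28 without single libraries. Leaving libraries out also leaves fewer samples. With the replicate number as a block, 345 genes, 1 member and 5 other heparan sulfate genes (4 higher, 1 lower) were called. The numbers were not taken to pair the libraries, since same-numbered libraries correlated at 0.259, -0.38, -0.44 and 0.249 in their deviations from the group means. Of 320 refits of the 20 called heparan sulfate genes, 98 lost the call and 0 changed direction. Depth limited GPC3 and GPC4, which were too low to be tested.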
